A study of Mus musculus with 6 samples.

Results

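Of the 55357 rows of the liver count table, 8 carry chosen genes of galactose use, sialic acid supply and glycan assembly on secreted proteins: Galt, Gne, Nans, Slc35a1, Alg2, Manea, B4galt1 and Galnt12. They were chosen by symbol and role among genes in the first part of chromosome 4. The rule uses no measured value, but earlier results of these data were known when the members were chosen. All 8 passed the filter on low counts that left 7261 rows for testing. The livers came from mice given as C57BL/6 in the labels and C57BL/6N in the methods, and every mouse in either group received antibiotics (ABX) in the drinking water, a mix of gentamicin, sulbenicillin and cephalosporin with the antifungal amphotericin B. Mice of the short-day group (SD) had 8 h of light and 16 h of dark, and mice of the normal light-dark group (NLD) had 12 h of each, with 3 mice per group and 1 library per mouse. Mice without antibiotics were not analysed here, so the comparison asks what photoperiod did in ABX mice only. Livers were taken in the morning after a fast in either group. The labels give Day 28, and the methods describe a longer trial. The library totals were 5548753 to 6932965 counts under SD and 5497797 to 6457190 counts under NLD.

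Most plasma proteins made by hepatocytes carry sugar chains, and these genes supply or build them. In the Leloir pathway, GALT turns galactose 1-phosphate into UDP-galactose, the donor for galactose on glycans. Sialic acid, the usual last sugar of such chains, is made in the cytosol by GNE and NANS, activated in the nucleus and carried into the Golgi by SLC35A1. N-glycans start on a lipid in the endoplasmic reticulum, where ALG2 adds mannose. In the Golgi, MANEA trims glucosylated mannose chains and B4GALT1 adds the galactose on which sialic acid is set. GALNT12 belongs to the enzymes that start O-glycans on serine and threonine. Chains that lose their sialic acid expose galactose, which the asialoglycoprotein receptor of hepatocytes binds.

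The methods name the genome GRCm39 and the processing notes GRCm38, and a row can stand for its named gene under either only where positions agree. With its neighbours taken into account, position was kept by 535 (2.53%) of 21113 protein-coding rows that could be matched, called fixed-position rows here, and all 8 members are among them. In GRCm39 they lie on chromosome 4 at chr4:26324496-26347084 (Manea), chr4:34663244-34687461 (Slc35a1), chr4:40804602-40854046 (B4galt1), chr4:41755186-41760050 (Galt), chr4:44034074-44084187 (Gne), chr4:46489248-46503632 (Nans), chr4:47091905-47123070 (Galnt12) and chr4:47460341-47474349 (Alg2). The start of the Alg2 span differs by 9492 bases between the annotations, where its transcript ends, and its other end by 18 bases. RefSeq promoter windows of GRCm38.p6 (250 bases before to 50 after a start) were found for 5 members, and all 7 of their windows read the same bases at the same coordinates of GRCm39. Of all 32851 windows, 662 (2.02%) did so. Shown are the 250 bases before a RefSeq start of Galt and of Slc35a1, both picked after their values were seen. Galt was the member with the smallest p in the comparison below, and Slc35a1 the member whose groups did not overlap. The windows are chr4:41755267-41755516 on the plus strand for Galt and chr4:34687439-34687688 on the minus strand for Slc35a1, in GRCm38.p6. Capitals mark the E-box CACGTG, which reads the same on both strands and is bound by CLOCK with BMAL1 and by other factors of their class.
Galt: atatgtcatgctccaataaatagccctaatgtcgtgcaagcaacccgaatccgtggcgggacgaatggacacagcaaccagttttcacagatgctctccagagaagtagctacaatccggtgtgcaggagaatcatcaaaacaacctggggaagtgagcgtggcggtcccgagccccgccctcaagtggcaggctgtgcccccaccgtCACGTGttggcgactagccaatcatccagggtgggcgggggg
Slc35a1: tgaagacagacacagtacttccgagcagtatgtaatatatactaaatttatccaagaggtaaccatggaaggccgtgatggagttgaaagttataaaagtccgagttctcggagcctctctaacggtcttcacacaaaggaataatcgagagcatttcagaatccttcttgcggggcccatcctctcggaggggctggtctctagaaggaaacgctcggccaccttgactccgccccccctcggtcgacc
The first base of the E-box lies 42 bases before the RefSeq start of Galt. The GENCODE span of Galt begins 331 bases before that start, so that the window lies within it. The Slc35a1 window lies within the RefSeq span of its gene in GRCm38, which reaches base 34688113. No other motif was searched. The E-box occurs in 1978 of the 32851 windows of this length (6.02%), and the other member windows, a second one of Galt among them, do not hold these letters.

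Between SD and NLD, none of the 8 members passed an adjusted p under 0.05 in edgeR's quasi-likelihood test, adjusted over the 7261 rows tested, of which 0.289% (21 rows) passed, 0.193% as higher and 0.0964% as lower. Among the fixed-position rows 0.288% passed. DESeq2 called none of the 8 at an adjusted p under 0.05 either, against 1.89% of all rows. Without adjustment, Galt alone passed p under 0.05 in edgeR, as lower, where 8.48% of all rows passed (4.46% as higher and 4.02% as lower) and 13.5% of the fixed-position rows. In DESeq2, Galt and Alg2 passed an unadjusted p under 0.05, where 9.93% of all rows did. The log2 fold change was above 0 in 5 members and below 0 in 3, with a median of 0.10 beside 0.03 over all rows tested. The median size of the change, sign left aside, was 0.20 for the members, 0.32 for all rows tested and 0.27 for the 347 fixed-position rows tested. In bulk liver, fewer cells of a type and less RNA per cell cannot be told apart.

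**Figure D1:**
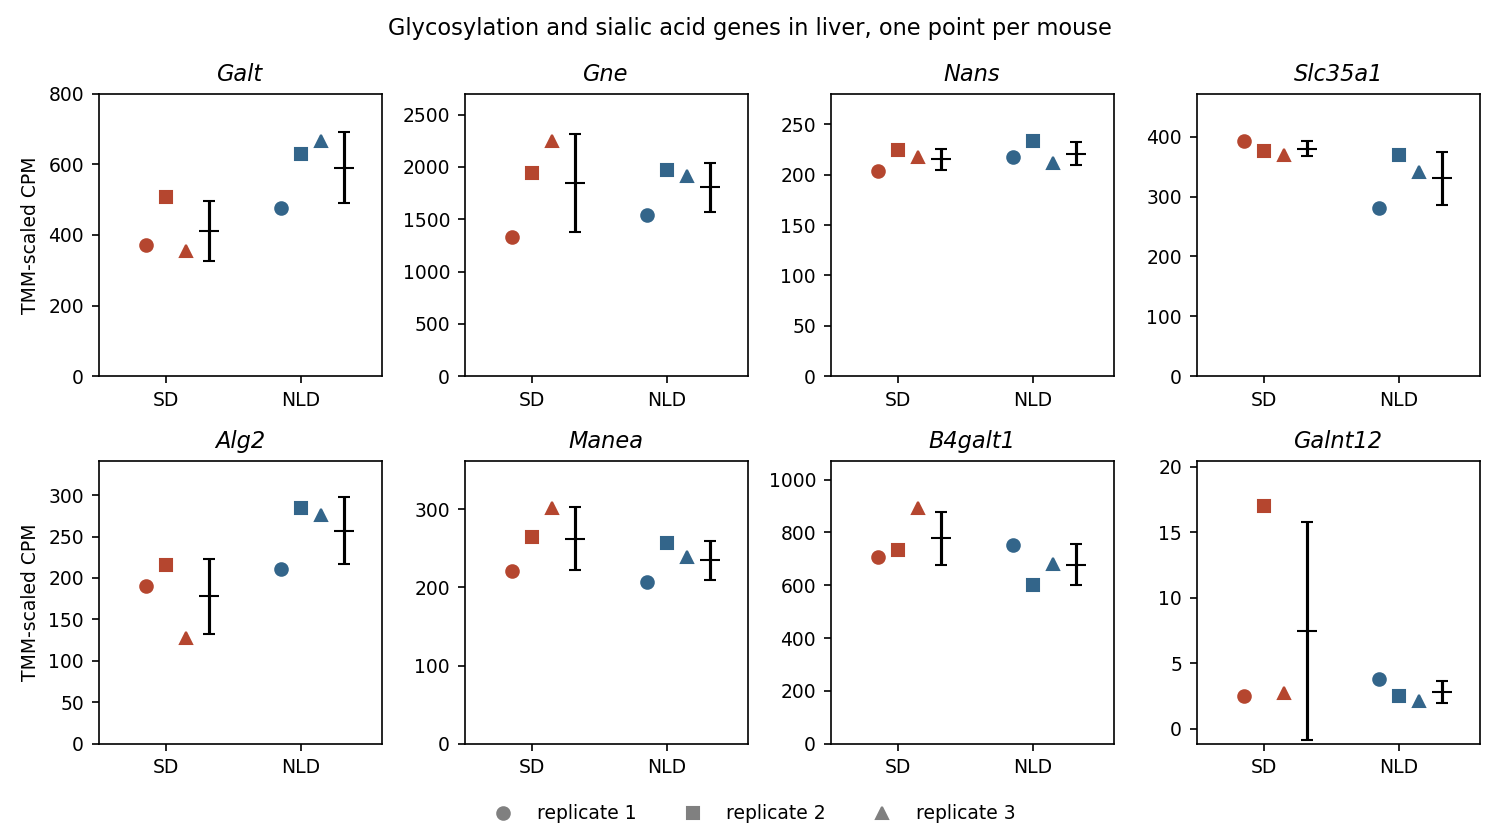
TMM-scaled CPM (counts scaled to a common library size, with TMM factors for library composition) of the 8 members on linear axes, 1 point per mouse, SD left and NLD right in each panel, with the mean and standard deviation as the black bar. Slc35a1 has its 3 SD points at 370 to 394 CPM, above the highest NLD point of 369, while Galnt12 has a lone SD point at 17.0 CPM.

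Galt and Alg2 had the most negative log2 fold changes of SD over NLD among the members, and that of Galt had the smallest p. Galt had 370, 508 and 353 CPM in SD replicates 1, 2 and 3, against 475, 629 and 667 CPM in NLD replicates 1, 2 and 3. The groups overlapped by SD replicate 2, which lay above NLD replicate 1, and the other SD libraries lay below every NLD library. The means were 411 ± 84.9 CPM under SD and 590 ± 102 CPM under NLD (standard deviation, n = 3 each). This is a log2 fold change of -0.52 (standard error 0.20), or 0.695-fold with a 95% interval of 0.497 to 0.974 from edgeR. The unadjusted p was 0.0382 (place 470 of the 7261 rows) and the adjusted p 0.578 from the same edgeR test, with 0.296 from DESeq2. Without NLD replicate 1 the log2 fold change was -0.66 (adjusted p = 0.259 from edgeR), and without SD replicate 2 it was -0.72 (adjusted p = 0.483 from edgeR). It was smaller in size in the other 4 fits with a library left out, at -0.45 without SD replicate 1, -0.43 without SD replicate 3, -0.49 without NLD replicate 2 and -0.43 without NLD replicate 3 (adjusted p = 0.804 to 0.920 from edgeR). Galt lies within the span of Il11ra1, with which it shares no exon base.

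None of the sialic acid genes Gne, Nans and Slc35a1 passed the test at either threshold. Gne, the rate-limiting enzyme of the pathway, had the highest counts of all members. It had 1332, 1945 and 2252 CPM in SD replicates 1, 2 and 3, against 1540, 1968 and 1913 CPM in NLD replicates 1, 2 and 3. The SD libraries held both the lowest and the highest value, and the NLD values lay between them. The means were 1843 ± 468 CPM under SD and 1807 ± 233 CPM under NLD (standard deviation, n = 3 each), or 1.02-fold with a 95% interval of 0.712 to 1.46 (adjusted p = 0.977 from edgeR).

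Nans, the synthase that joins phosphorylated N-acetylmannosamine with phosphoenolpyruvate, lay between 204 and 234 CPM in all 6 mice. It had 204, 225 and 218 CPM in SD replicates 1, 2 and 3, against 218, 234 and 211 CPM in NLD replicates 1, 2 and 3. The groups overlapped almost fully. The fold change was 0.975, with a 95% interval of 0.802 to 1.18 (adjusted p = 0.939 from edgeR), the narrowest interval of the 8. Of the exon bases of Nans, 1356 (29.4%) lie under exons of Trim14 on the opposite strand, and the strand setting of the counting is not given in the sources used here. Trim14, of antiviral signaling, had 235 ± 77.0 CPM under SD and 178 ± 52.5 CPM under NLD (standard deviation, n = 3 each, adjusted p = 0.717 from edgeR).

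Slc35a1, the carrier of CMP-sialic acid into the Golgi, was the 1 member whose groups did not overlap. It had 394, 377 and 370 CPM in SD replicates 1, 2 and 3, against 281, 369 and 341 CPM in NLD replicates 1, 2 and 3. All SD libraries lay above all NLD libraries, but SD replicate 3 and NLD replicate 2 were less than 1 CPM apart. With RLE factors, with upper quartile factors or without the 10 most abundant rows the groups overlapped. Groups without overlap were seen in 17.0% of all rows tested (9.08% as higher and 7.93% as lower) and in 22.2% of the fixed-position rows, beside this 1 of 8. The means were 380 ± 12.0 CPM under SD and 330 ± 45.0 CPM under NLD (standard deviation, n = 3 each). The log2 fold change was 0.20 (standard error 0.14), or 1.15-fold with a 95% interval of 0.912 to 1.45 (adjusted p = 0.704 from edgeR). An exact two-sided permutation test gave p = 0.10, the smallest that 3 mice against 3 can give. Groups without overlap always give this value, so it adds nothing to the separation itself.

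Among the genes of glycan assembly, Alg2 had the lower mean under SD. It had 191, 215 and 127 CPM in SD replicates 1, 2 and 3, against 210, 284 and 276 CPM in NLD replicates 1, 2 and 3. SD replicate 2 lay above NLD replicate 1, and the groups overlapped by that pair alone. The means were 178 ± 45.3 CPM under SD and 257 ± 40.6 CPM under NLD (standard deviation, n = 3 each). The log2 fold change was -0.53 (standard error 0.23), or 0.691-fold with a 95% interval of 0.472 to 1.01 (unadjusted p = 0.0561 and adjusted p = 0.598 from edgeR). Without SD replicate 3, the lowest library, it was -0.34, and without SD replicate 2 it was -0.71. DESeq2 gave an unadjusted p of 0.0310 and an adjusted p of 0.414.

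Manea, a Golgi endomannosidase, and B4galt1, the main galactosyltransferase of the Golgi, had higher means under SD, with overlap between the groups. Manea had 221, 264 and 301 CPM in SD replicates 1, 2 and 3, against 207, 257 and 239 CPM in NLD replicates 1, 2 and 3. SD replicates 2 and 3 lay above every NLD library, and SD replicate 1 lay among the NLD values. The change was 1.12-fold with a 95% interval of 0.854 to 1.46 (adjusted p = 0.804 from edgeR). B4galt1 had 707, 732 and 892 CPM in SD replicates 1, 2 and 3, against 753, 601 and 681 CPM in NLD replicates 1, 2 and 3. SD replicate 3 stood above the other 5 libraries, and NLD replicate 1 lay above the remaining SD libraries. The change was 1.15-fold with a 95% interval of 0.892 to 1.47 (adjusted p = 0.723 from edgeR).

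Galnt12 was close to the lower limit of the table, and its difference rested on 1 mouse. It had counts of 15, 116 and 18 in SD replicates 1, 2 and 3, against 22, 15 and 13 in NLD replicates 1, 2 and 3. Apart from the 116 counts (17.0 CPM) of SD replicate 2, the libraries lay between 2.16 and 3.78 CPM. The log2 fold change was 1.40 (standard error 0.82, adjusted p = 0.655 from edgeR), and it was -0.10 without SD replicate 2. A count of 4 was more frequent than a count of 1, 2 or 3 in each library, so that low counts may not be numbers of single reads.

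**Figure D2:**
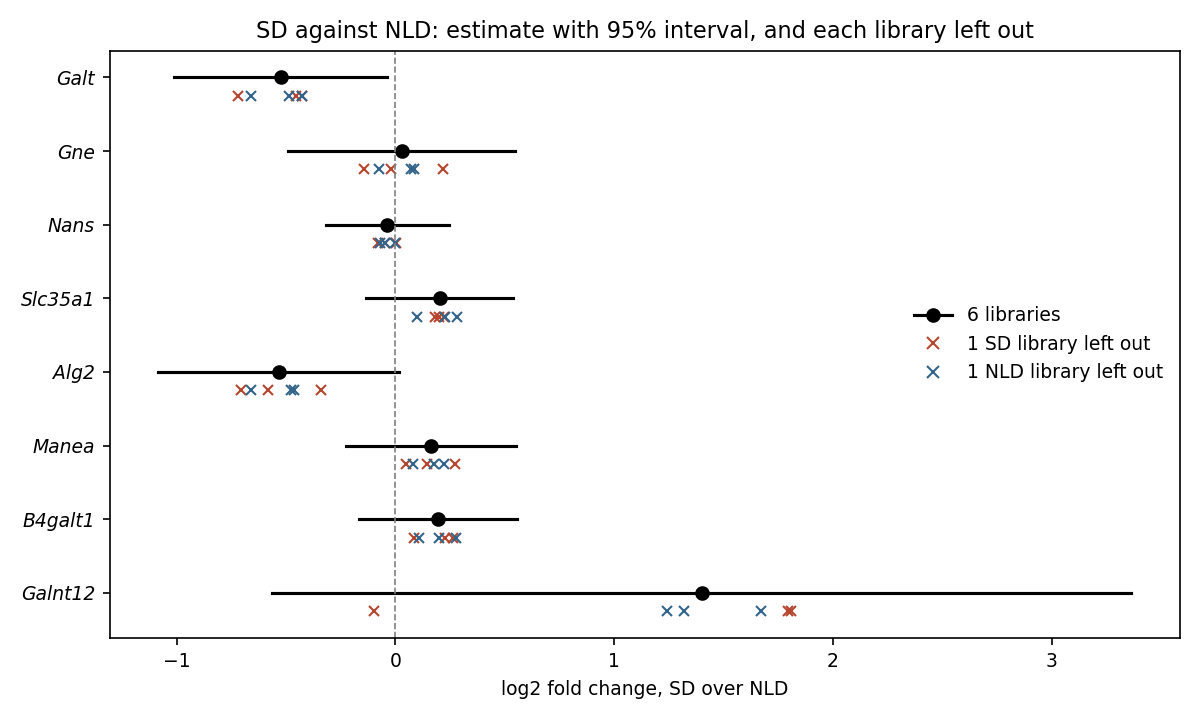
Log2 fold change of SD over NLD for each member from edgeR (black point) with its 95% interval (line), and the estimates with 1 SD library (red cross) or 1 NLD library (blue cross) left out. The Galt interval ends at -0.038 and all other intervals cross 0, and the crosses of Gne, Nans and Galnt12 lie on both sides of 0.

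Galt and Alg2 stayed below 0, and Slc35a1, Manea and B4galt1 above 0, in each of 17 alternative fits, while the sign of Gne, Nans and Galnt12 turned without 1 library or another. The adjusted p of no member was below 0.259 in any of these fits. Galt passed an unadjusted p under 0.05 in 13 of the 17, and Alg2 in 7. The fits in which Galt did not pass were those without SD replicate 1, SD replicate 3, NLD replicate 2 or NLD replicate 3. NLD replicate 1 held the lowest NLD value for 5 of the 8 members and the highest for 2. SD replicate 1 likewise held the lowest SD value for 5 and the highest for 1, and NLD replicate 2 held the highest NLD value for 5. On the first principal component of all tested rows (30.3% of the variance) the SD libraries lay at -44.7 to -13.3, with NLD replicate 1 among them at -14.8 and the other NLD libraries at 27.7 and 75.0. The part of NLD replicate 1 in the member values was not tested beyond the fits without it.

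**Figure D3:**
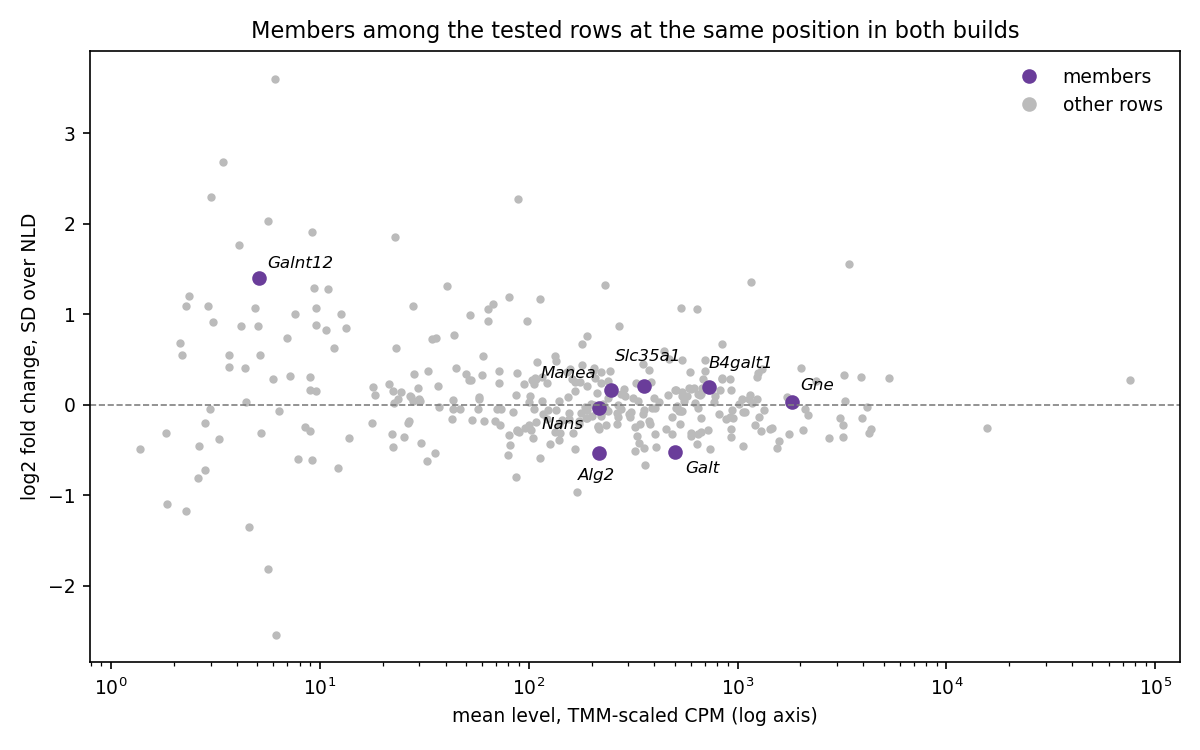
Log2 fold change of SD over NLD against the mean level (log axis, TMM-scaled CPM) for the 347 fixed-position rows tested (grey), with the 8 members in purple. Galt (-0.52) and Alg2 (-0.53) lie low among rows of like level, 5 members lie between -0.037 and 0.20, and Galnt12 lies among low rows that scatter widely.

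Levels between genes were set per kb of transcript, with lengths from a later version of the annotation than the table's. By the principal transcript of each gene, Gne stood first, with 631 CPM per kb under SD and 619 CPM per kb under NLD, and each library lay above any value of the next gene. Galt, B4galt1 and Slc35a1 followed, with 166, 193 and 185 CPM per kb under SD and 239, 169 and 161 CPM per kb under NLD, and their ranges overlapped. Under SD the mean of Galt was the lowest of these, and under NLD it was the highest. Nans (98.9 CPM per kb under SD and 101 under NLD), Alg2 (58.5 under SD and 84.6 under NLD) and Manea (53.8 under SD and 48.1 under NLD) came next, and neighbours in this order overlapped. Galnt12 came last at 3.25 CPM per kb under SD and 1.23 CPM per kb under NLD, below every other member in every library. By all merged exons, which are long for Gne and B4galt1, Gne, Slc35a1 and Galt overlapped at the top, with means over the 6 libraries of 137, 130 and 110 CPM per kb.

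**Figure D4:**
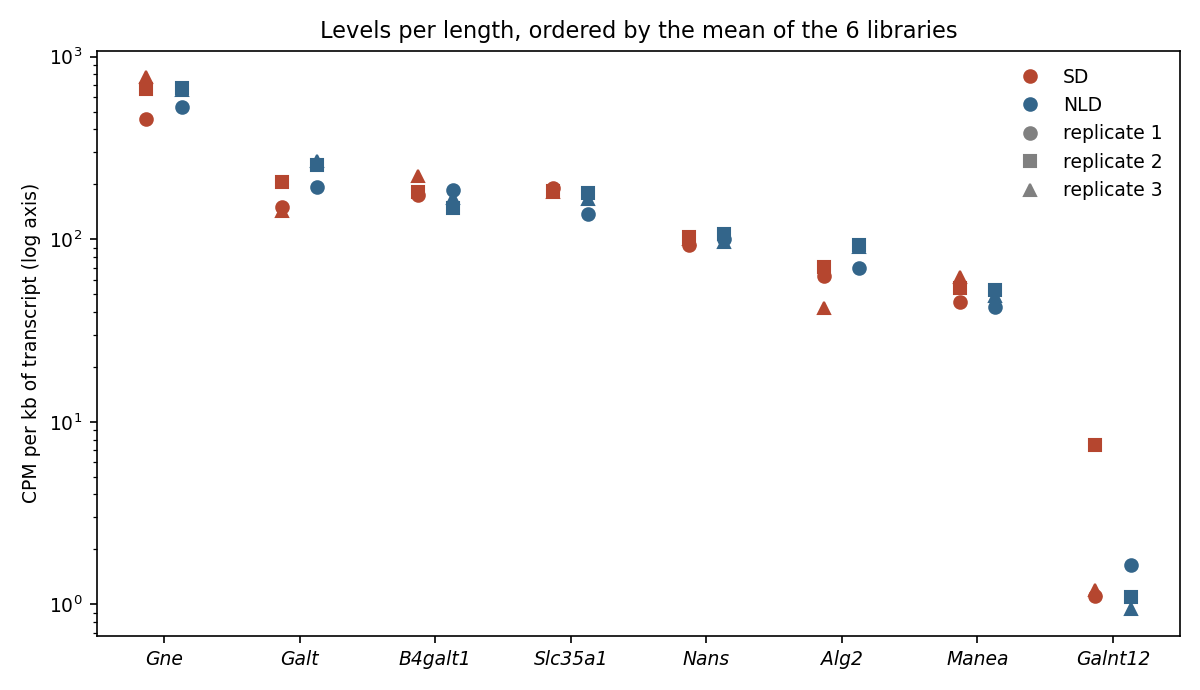
CPM per kb of the principal transcript (log axis) for each member, 1 point per mouse, SD left of NLD, members ordered by the mean of the 6 libraries. Gne lies apart at the top (456 to 771 CPM per kb) and Galnt12 at the bottom (0.942 to 7.44 CPM per kb).

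The members varied among mice to different degrees. The coefficient of variation was 3.16% (Slc35a1) to 25.5% (Alg2) under SD and 5.27% (Nans) to 17.2% (Galt) under NLD in the 7 members other than Galnt12, for which it was 112% under SD and 30.4% under NLD. The median over the 8 was 18.0% under SD and 13.3% under NLD, beside 16.0% and 14.9% under SD and NLD for the fixed-position rows. As a description over the 6 libraries, which share the group difference, log2 CPM of Galt and Alg2 had a Pearson correlation of 0.92, Gne and Manea of 0.87, and Alg2 and B4galt1 of -0.92. The 3 rows most like Galt among 346 other fixed-position rows were Clta, a clathrin light chain (0.97), Aldh1b1, a mitochondrial aldehyde dehydrogenase (0.97), and Xpa, of DNA repair (0.96). None of them is a member, and the log2 fold changes of Aldh1b1 and Xpa were -0.48 and -0.59 (adjusted p = 0.516 each from edgeR). Clta shares 321 exon bases with Gne on the opposite strand and had 1161 ± 82.0 CPM under SD and 1424 ± 82.8 CPM under NLD (standard deviation, n = 3 each), a log2 fold change of -0.30 (adjusted p = 0.578 from edgeR).

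Of the other genes of these pathways, only C1galt1 was a fixed-position row among those tested. It extends O-glycans with galactose, the step after GALNT enzymes, and had 694 ± 35.5 CPM under SD and 637 ± 26.8 CPM under NLD (standard deviation, n = 3 each), a log2 fold change of 0.12 (adjusted p = 0.778 from edgeR). The remaining rows may stand for other genes. Of those named below, only the rows of Ugp2, St3gal5, Uggt1, Man1a2 and Itih2 overlap their own gene's span between the builds. Of the 184 rows of these lists, 86 were at 0 in the 6 libraries. Of the 51 tested, none passed the test, with 2 higher and 1 lower at an unadjusted p under 0.05, 25 above 0 and 26 below, and a median of -0.02.

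By list, the tested rows were 2 of 8 for galactose use, 4 of 11 for sialic acid metabolism, 6 of 21 for sialyltransferases and 6 of 25 for sugar nucleotides and their transporters. Ugp2, which makes UDP-glucose, had 39.1 ± 10.2 CPM under SD and 51.0 ± 17.9 CPM under NLD, and Galk2, a kinase of N-acetylgalactosamine, had 28.6 ± 2.63 CPM under SD and 27.3 ± 2.92 CPM under NLD. Neu1, the lysosomal sialidase, had a log2 fold change of 0.33 and Slc17a5, the lysosomal sialic acid exporter, of 0.35 (adjusted p = 0.652 and 0.840 from edgeR). The row of St6gal1, which sets most sialic acid on N-glycans of plasma proteins, had 51.7 ± 6.28 CPM under SD and 70.3 ± 8.76 CPM under NLD (adjusted p = 0.578 from edgeR), but its GRCm39 span covers Kng1, Eif4a2 and Adipoq in GRCm38. St3gal5, of ganglioside synthesis, had 4.09 ± 1.62 CPM under SD and 1.68 ± 0.721 CPM under NLD (adjusted p = 0.579 from edgeR). Slc35a3, a carrier of UDP-N-acetylglucosamine, and Uap1, which makes that sugar nucleotide, had log2 fold changes of -0.49 and 1.02 (adjusted p = 0.668 and 0.816 from edgeR).

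For N-glycan synthesis, 7 of 22 rows of the lipid-linked precursor, 1 of 12 of the oligosaccharyltransferase, 9 of 22 of trimming and branching and 2 of 6 of the galactosyltransferases were tested. Alg12, a mannosyltransferase, had 34.3 ± 0.524 CPM under SD and 25.3 ± 3.00 CPM under NLD (adjusted p = 0.578 from edgeR), and its GRCm39 span falls in Brd1 in GRCm38. Alg14, a subunit of the enzyme that adds N-acetylglucosamine to the lipid, had a log2 fold change of -0.79 (adjusted p = 0.622 from edgeR). Tmem258, a subunit of the oligosaccharyltransferase, had a log2 fold change of -0.02 (adjusted p = 0.990 from edgeR). Uggt1, a folding sensor, and Man1a2, a Golgi mannosidase, whose spans overlap themselves between the builds, had log2 fold changes of 0.85 and 0.41 (adjusted p = 0.622 and 0.640 from edgeR). B4galt4 and B4galt6, relatives of B4galt1, had log2 fold changes of -0.51 and 0.13 (adjusted p = 0.631 and 0.830 from edgeR).

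In the O-glycan list, 5 of 23 rows were tested, and Galnt6, a relative of Galnt12, had a log2 fold change of -0.24 (adjusted p = 0.713 from edgeR). Of 34 rows of secreted glycoproteins and the asialoglycoprotein receptor, 9 were tested and 18 were at 0 in all libraries. Itih2, a heavy chain of a plasma protease inhibitor, overlaps itself between the builds and had 1936 ± 47.2 CPM under SD and 2295 ± 31.3 CPM under NLD (standard deviation, n = 3 each), a log2 fold change of -0.25 (adjusted p = 0.592 from edgeR and 0.0720 from DESeq2). All its SD libraries lay below all its NLD libraries, as was so for 7.93% of all rows tested. Serpina1d, of the alpha-1-antitrypsin family whose near-identical copies may share reads, had a log2 fold change of -0.30 (adjusted p = 0.598 from edgeR), and its GRCm39 span falls in Serpina1b in GRCm38.

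Of the hepatocyte markers, Pon1, a plasma paraoxonase, and Cyp7a1, of bile acid synthesis, are fixed-position rows, with 14191 ± 1027 and 5081 ± 1718 CPM under SD and 16973 ± 1809 and 1723 ± 646 CPM under NLD (standard deviation, n = 3 each). The groups did not overlap for either, narrowly so for Pon1, as was seen in 22.2% of the fixed-position rows tested. Neither passed the test (adjusted p = 0.631 and 0.327 from edgeR). The summed level of the hepatocyte list was 20153 to 25905 CPM under SD and 19480 to 24023 CPM under NLD. Pon1 and Cyp7a1 made up most of it and differed in opposite directions, so the sum does not measure the share of hepatocytes. No row of any marker list passed the test, with 11 of 21 hepatocyte, 3 of 7 cholangiocyte, 1 of 11 Kupffer cell, 4 of 9 endothelial, 4 of 9 stellate cell, 2 of 9 lymphocyte, 0 of 5 neutrophil and 1 of 5 red blood cell rows tested. Of the Kupffer cell rows, 10 of 11 were at 0 in all libraries, as were 8 of 21 hepatocyte rows. Marker rows without a fixed position may stand for other genes, so rows at 0 do not show that a cell type was absent. Outside the hepatocyte list, only Col1a2 of stellate cells and Cftr of cholangiocytes were fixed-position rows. Col1a2 had 203 ± 98.7 CPM under SD and 176 ± 65.0 CPM under NLD (standard deviation, n = 3 each). Cftr had 3.96 ± 3.03 CPM under SD and 1.86 ± 1.74 CPM under NLD. The part of cells other than hepatocytes in the member values was not tested.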

How the data were processed

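Liver RNA of 3 SD and 3 NLD mice was analysed. The authors trimmed reads with fastp, aligned them with HISAT2, quantified genes with StringTie and deposited raw counts, 1 whole number for each gene and library. How StringTie output became counts is not given in the sources used here, nor are read length and strand.

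The test was edgeR 4.0.16 run under R 4.3.3, with filterByExpr by group, TMM factors and robust glmQLFit and glmQLFTest (two-sided, Benjamini-Hochberg over all 7261 rows tested). A standard error is the absolute log2 fold change over the root of F, and 95% intervals use the t distribution of that fit. Positions came from GENCODE (GRCm39, by gene ID) and RefSeq (GRCm38.p6, by symbol). A row was called fixed-position when 11 neighbouring coding rows differed by a median of at most 10 bases and its nearer end by at most 2000. Correlations used log2 CPM with a prior count of 2. Named were all members, up to 2 rows with the smallest p of each pathway list, any row past the test and the 3 rows most like the member with the smallest p. Lists of markers of liver cell types were added. The members and lists were chosen with earlier results of these data known. Alternatives were RLE and upper quartile factors, factors from fixed-position rows, a minimum of 10 counts throughout or no filter, estimation that was not robust, DESeq2 1.42.0 on filtered and unfiltered rows, the 10 most abundant rows left out, rows sharing a symbol summed, the replicate number as a block and each library left out. No library repeated another of its group (chi-square of their counts 30.1 to 61.4 per row). The 3 mice per group limit the precision, and p-values measure the spread between these mice. A result that is withheld is not reported here.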

Additional observations from a re-analysis of the deposited data

How the results depend on the processing

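The count of members past an adjusted p under 0.05 and that of other pathway rows were 0 in all 17 alternatives. The 21 rows called over the whole table became 44 with no filter on low counts, 137 with DESeq2, 91 with DESeq2 and no filter, 0 with the replicate block and 0 to 30 with a library left out (0 without any one of the SD libraries). Rows with an unadjusted p under 0.05 (616) ranged between 397 (without SD replicate 3) and 1138 (without NLD replicate 1). Members with an unadjusted p under 0.05 (1) became 2 with factors from fixed-position rows, with no filter, with at least 10 counts in every library and with either DESeq2 fit, and 0 to 2 with a library left out. Members whose groups do not overlap (1) became 0 with RLE factors, upper quartile factors or the 10 most abundant rows left out, 2 with factors from fixed-position rows, and 1 to 5 with a library left out (5 without NLD replicate 1), where smaller groups separate more readily: over all rows the 1235 became 1830 to 2948. With a library left out, the log2 fold change ranged between -0.14 and 0.22 for Gne, -0.078 and 0.0033 for Nans, and -0.10 and 1.81 for Galnt12. The median log2 fold change of the members was -0.05 without SD replicate 2 and between 0.0018 and 0.20 without any other library. Replicate numbers were not taken to pair the mice, since same-numbered libraries correlated by 0.08, 0.07 and 0.04 in their deviations, although each correlated best with its own number. The block changed no member's call. With 3 mice per group, a member that did not pass the test is not shown to be unchanged.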
